A study of Mus musculus with 12 samples.

Results

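Crispld2, Esam, Cd37 and Grin1 were the genes examined, 4 of the 24480 genes listed for every library. They were chosen by how much their RNA rose when YAP was knocked down: among genes called higher in the knockdown, averaging 50 or more expected counts and with every YAP KD library above every CTR KD library, they held ranks 2 to 5 by log2 fold change. Their knockdown values are therefore a description and carry no test. The ranking used no overexpression library, but the gene of rank 1 was left out, and no reason is given. The 4 were also chosen with earlier results of these data known, so the overexpression may not be independent of the choice. The question was whether genes that rise when YAP is lost fall when YAP is raised.

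All libraries came from mouse embryonic stem cells (ESCs) labelled pluripotent and, per the study's methods, from the feeder-free line E14Tg2a grown with serum and LIF, a cytokine that keeps ESCs undifferentiated. CTR KD cells were transfected transiently with scrambled siRNAs and YAP KD cells with siRNAs against mouse Yap1, which in the study's methods are Stealth duplexes. CTR OE cells received a plasmid that encodes GFP according to the labels but was an empty vector according to the study's text, and YAP OE cells received pCAG-mYAP, in which the CAG promoter drives the wild-type mouse YAP coding sequence in whichever cells take up the plasmid. Each of the 4 groups had 3 libraries, which the labels describe as independent experiments, and the 2 experiments share no library. In the knockdown experiment RNA was profiled 48 h after transfection of the siRNAs, and the labels give no time for the plasmids. The share of transfected cells is not given in the sources used here.

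YAP is a coactivator that the Hippo kinases keep out of the nucleus. It has no DNA-binding domain of its own and reaches its targets through the TEAD factors, mostly at enhancers, where it usually raises transcription. YAP and TEAD can also lower transcription, in part by bringing the NuRD deacetylase and remodelling complex to their sites. The 4 genes belong to unrelated families and are best known outside ESCs. Crispld2 encodes a secreted protein of the CAP superfamily with LCCL domains, made by mesenchymal cells of the lung and face. Esam encodes an immunoglobulin-type adhesion protein of endothelial tight junctions and platelets. Cd37 encodes a tetraspanin of leukocytes, most abundant on B cells. Grin1 encodes the subunit that every NMDA-type glutamate receptor contains, a hallmark of neurons that most other cells keep silent.

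Library depth ranged from 4.29e+07 to 5.72e+07 expected counts, RSEM's estimates of the reads that belong to a gene. Levels are given as CPM, counts set to a common library size by TMM scaling over all 12 libraries, or as TPM where genes are compared, since only TPM is corrected for length. Yap1 itself checked the labels: it went from 125.4 ± 9.40 to 56.7 ± 1.80 CPM in the knockdown and from 132.5 ± 2.02 to 258.8 ± 16.6 CPM in the overexpression (mean ± SD, n = 3), where plasmid and endogenous reads were counted together. All 12 ESC markers were detected, and their summed level lay between 6138 and 6767 CPM in every library.

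Per the RefSeq annotation of GRCm38.p6, the assembly named mm10 in the labels, the 4 genes lie on 4 chromosomes. Crispld2 is at chr8:119992438-120052794 on the plus strand, Esam at chr9:37528089-37538319, Cd37 at chr7:45233632-45239340 on the minus strand and Grin1 at chr2:25291177-25319187 on the minus strand. Promoters were read for Crispld2, Cd37 and Grin1, 3 of the 4 genes, from RefSeq's GRCm38.p6 sequences that run from 250 bases before an annotated start to 50 bases after it. For Crispld2 and Grin1 that start is the outer end of the gene, whereas for Cd37 it is chr7:45238839, 501 bases inside the span given above, so the Cd37 window lies within the annotated gene. They are shown because the genes moved together in the knockdown and because YAP acts through a factor with a known core motif. They are written 5′ to 3′ on the strand of the gene, and capitals mark GGAATG, the TEAD core, or CACGTG, the E-box letters bound by Myc and USF family factors, on either strand. The E-box was searched only after these sequences had been read.
Crispld2, chr8:119992188-119992487, plus strand: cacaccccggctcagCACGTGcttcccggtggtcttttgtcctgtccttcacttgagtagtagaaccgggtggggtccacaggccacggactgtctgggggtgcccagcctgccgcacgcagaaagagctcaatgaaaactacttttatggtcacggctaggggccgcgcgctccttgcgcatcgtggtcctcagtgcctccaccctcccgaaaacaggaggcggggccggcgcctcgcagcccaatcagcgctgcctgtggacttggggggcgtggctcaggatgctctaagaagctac
Cd37, chr7:45238790-45239089, minus strand: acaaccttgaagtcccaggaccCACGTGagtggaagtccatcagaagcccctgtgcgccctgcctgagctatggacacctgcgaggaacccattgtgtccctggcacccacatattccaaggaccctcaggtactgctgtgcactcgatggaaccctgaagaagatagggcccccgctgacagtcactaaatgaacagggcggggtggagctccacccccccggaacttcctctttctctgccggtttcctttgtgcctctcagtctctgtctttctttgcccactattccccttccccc
Grin1, chr2:25319138-25319437, minus strand: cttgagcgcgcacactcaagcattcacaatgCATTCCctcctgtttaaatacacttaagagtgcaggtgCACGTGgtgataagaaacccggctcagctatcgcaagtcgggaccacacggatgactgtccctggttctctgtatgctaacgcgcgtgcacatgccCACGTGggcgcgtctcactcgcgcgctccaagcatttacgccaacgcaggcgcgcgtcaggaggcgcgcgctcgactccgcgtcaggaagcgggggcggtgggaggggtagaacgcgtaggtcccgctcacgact

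The TEAD core was present in the promoter of Grin1, as its reverse complement CATTCC with the first base at position -219 from the start, and its letters were not in the windows of Crispld2 and Cd37. Of 32851 RefSeq mouse promoters of the same length, 14.7% held it. CACGTG, which reads alike on both strands, was found at -235 in Crispld2, at -228 in Cd37 and at -181 and -85 in Grin1, counted in each case from the start on which the window is set, and 7.15% of all promoters held it. CACGTG was searched after these sequences had been read, so its presence in all 3 was known beforehand and cannot be weighed against that share. Nor is that share matched for CpG content. The capitals in the 3 sequences do not overlap. Base composition differed among the promoters: Grin1 had 33 CpG dinucleotides and 60.7% G+C, Crispld2 20 CpG and 63.0%, and Cd37 8 CpG and 57.7%, against a median of 7 CpG and 52.7% over all promoters. The matches are letters in a window and do not show binding.

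In control ESCs all 4 genes were transcribed at low levels. Per length, Cd37 was the highest in CTR KD at 0.560 ± 0.050 TPM, followed by Esam at 0.473 ± 0.021, Grin1 at 0.297 ± 0.055 and Crispld2 at 0.180 ± 0.020 TPM (mean ± SD, n = 3). No ranges overlapped between neighbours in this order, although the highest Esam library, at 0.490 TPM, came within the SD of Cd37 of the lowest Cd37 library, at 0.510 TPM. In CTR OE the order was Esam at 0.620 ± 0.030 TPM, Cd37 at 0.553 ± 0.142, Grin1 at 0.310 ± 0.056 and Crispld2 at 0.183 ± 0.012, and there the Esam and Cd37 libraries overlapped. For comparison, Yap1 stood at 16.3 TPM and Tead2, the TEAD gene next to Cd37, at 20.9 TPM in CTR KD.

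The rise that chose the genes was visible in every knockdown library. Crispld2 had 56, 77 and 74 expected counts in the CTR KD libraries and 184, 173 and 204 in the YAP KD libraries. Esam had 65, 88 and 74 counts in CTR KD and 146, 140 and 194 in YAP KD. Cd37 had 46, 63 and 59 counts in CTR KD and 93, 111 and 131 in YAP KD. Each YAP KD library thus lay above each control library for these genes, the narrowest gap being that of Cd37. Grin1 had 78.97, 122.84 and 121.97 counts in CTR KD and 266.83, 336.73 and 376.18 in YAP KD, the widest separation of the 4.

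After scaling, Grin1 went from 2.19 ± 0.41 CPM in CTR KD to 7.004 ± 0.665 CPM in YAP KD (log2 fold change 1.67, SE 0.13). Crispld2 stood at 1.41 ± 0.16 CPM in the controls and 4.04 ± 0.29 CPM after knockdown (log2 fold change 1.52, SE 0.12). Esam stood at 1.54 ± 0.12 CPM in the controls and 3.42 ± 0.22 CPM after knockdown (log2 fold change 1.15, SE 0.11). Cd37 stood at 1.14 ± 0.12 CPM in the controls and 2.39 ± 0.17 CPM after knockdown (log2 fold change 1.07, SE 0.13). As linear folds these estimates are 3.18, 2.86, 2.22 and 2.10. These sizes, and the lack of overlap in 4 of 4 genes, follow from the choice. Over all 14606 genes tested in the knockdown, 2.71% were called higher (edgeR quasi-likelihood test, adjusted p under 0.05) and 12.8% had every YAP KD library above every CTR KD library.

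Just inside the limit of the ranking, Cd37 had a log2 fold change of 1.07 on a mean of 83.8 counts, and just outside it Aurkc, a kinase of meiotic chromosomes, had 1.07 on 309.2 counts and Prkch, a protein kinase C, 1.03 on 228.7 counts. In all, 376 genes met the same conditions. The gene of rank 1, Ndufa4l2, a hypoxia-induced mitochondrial protein, is not among the 4. It had a mean of 64.5 counts and a knockdown log2 fold change of 2.21.

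**Figure D1:**
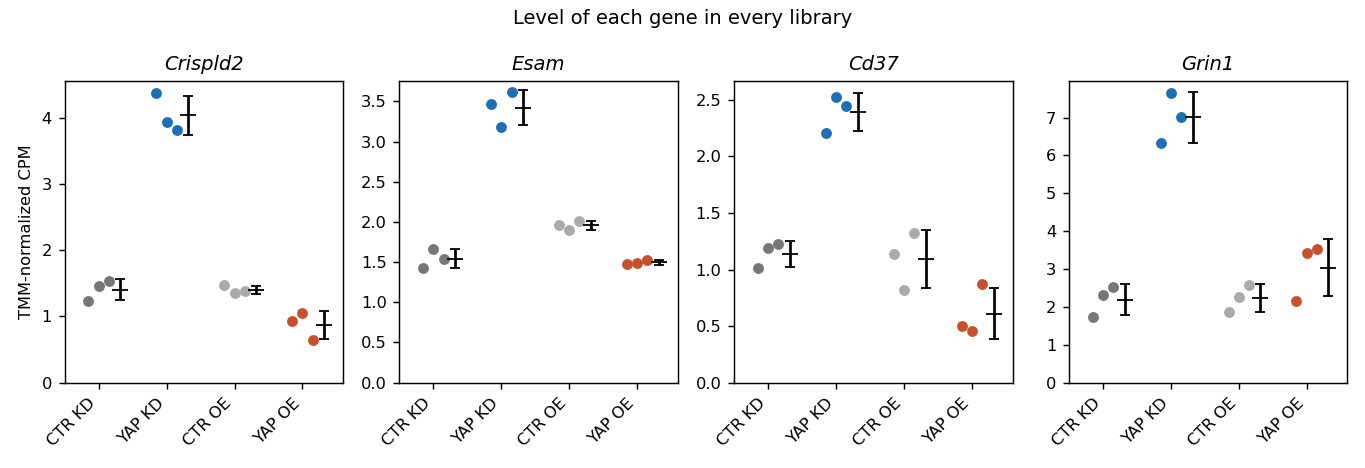
TMM-normalized CPM (y axis, linear, from 0, own scale in each panel) of the 4 genes in every library of the 4 groups; points are libraries 1 to 3 of a group from left to right, and the black mark with bars is the mean ± SD. The YAP KD libraries lie above all others for each gene, and the YAP OE libraries lie below all CTR OE libraries for Crispld2 and Esam but not for Cd37 and Grin1.

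In the overexpression, 3 of the 4 genes had lower estimates in YAP OE than in CTR OE and Grin1 had a higher one. Ndufa4l2, of rank 1 in the knockdown but left out of the 4, was higher too (log2 fold change 1.77, edgeR quasi-likelihood adjusted p = 0.00259). None of the 4 was called: the edgeR quasi-likelihood test gave 0 of 4 at an adjusted p under 0.05, whereas 4 of 4 had an unadjusted p under 0.05. Of the other tools, the edgeR exact test called 2 of the 4 (Crispld2 and Cd37), and DESeq2 and limma-voom called 0 each, again with unadjusted p under 0.05 for all 4. Over all 14804 genes tested, the quasi-likelihood test called 0.473% lower and 1.66% higher, and gave 13.1% an unadjusted p under 0.05. It called 316 genes in all, whereas the edgeR exact test called 518. An estimate below 0, found for 3 of the 4 genes, was found for 51.3% of all genes.

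Crispld2 had 76, 66 and 73 expected counts in the CTR OE libraries and 48, 46 and 36 in the YAP OE libraries. Every YAP OE library was below every control, with the lowest count in replicate 3, which was the deepest library of all. The level was 1.40 ± 0.06 CPM in CTR OE and 0.874 ± 0.211 CPM in YAP OE (mean ± SD, n = 3), so the fitted YAP OE level was 61.6% of the control. The log2 fold change was -0.70 (SE 0.18, 95% interval -1.09 to -0.31, edgeR quasi-likelihood unadjusted p = 0.00166, adjusted p = 0.0663). Of the 4 genes this was the nearest to the threshold, and it passed it in the edgeR exact test (adjusted p = 0.00913), without a filter beyond 1 count (0.0150), in 1 edgeR fit over 12 libraries (0.0488) and without YAP OE replicate 2 (0.0375). Its adjusted p ranged from 0.00913 to 0.448 over 15 other ways of processing and from 0.0375 to 0.204 over 6 left-out libraries.

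Esam had 102, 93 and 106 counts in CTR OE and 76, 65 and 86 in YAP OE. No YAP OE library reached the lowest control, and after scaling the groups were tight, with 1.96 ± 0.05 CPM in CTR OE and 1.496 ± 0.032 CPM in YAP OE. The fitted YAP OE level was 76.5% of the control, a log2 fold change of -0.39 (SE 0.13, 95% interval -0.66 to -0.12, edgeR quasi-likelihood unadjusted p = 0.00814, adjusted p = 0.164). No setting called Esam, with adjusted p from 0.0976 to 0.936 over 15 other ways of processing and from 0.217 to 0.445 over 6 left-out libraries. Crispld2 and Esam were thus the 2 of the 4 genes with every YAP OE library below every CTR OE library, which held for 7.9% of all genes.

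Cd37 had 59, 40 and 70 counts in CTR OE and 26, 20 and 49 in YAP OE. YAP OE replicates 1 and 2 were low, whereas replicate 3, at 0.873 CPM, was above the lowest control library, at 0.818 CPM, so the groups overlapped. In TPM the same libraries stood at 0.390 and 0.400 and the groups did not overlap. The level was 1.09 ± 0.26 CPM in CTR OE and 0.611 ± 0.228 CPM in YAP OE. Its log2 fold change, -0.81, was the lowest estimate of the 4 and the least precise (SE 0.25, 95% interval -1.35 to -0.28, edgeR quasi-likelihood unadjusted p = 0.00536, adjusted p = 0.129). Cd37 was called in the edgeR exact test (adjusted p = 0.0392), without a filter beyond 1 count (0.0225), in limma-trend on log2(TPM + 1) (0.0223) and without YAP OE replicate 3 (log2 fold change -1.19, adjusted p = 0.0269). Its adjusted p ranged from 0.0223 to 0.221 over 14 other ways of processing and from 0.0269 to 0.461 over 6 left-out libraries.

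Grin1 went the other way. It had 96.68, 110.88 and 136.77 counts in CTR OE and 111.88, 149.65 and 197.97 in YAP OE. YAP OE replicates 2 and 3 were above all controls, and replicate 1 lay within the control range. The level was 2.24 ± 0.36 CPM in CTR OE and 3.04 ± 0.76 CPM in YAP OE, with a log2 fold change of 0.43 (SE 0.17, 95% interval 0.07 to 0.80, edgeR quasi-likelihood unadjusted p = 0.0229, adjusted p = 0.263). Grin1 was called without YAP OE replicate 1 (log2 fold change 0.63, adjusted p = 0.0277), and in no other setting; its adjusted p ranged from 0.0713 to 0.933 over 16 other ways of processing and from 0.0277 to 0.608 over 6 left-out libraries. The interval of Grin1 does not meet that of Crispld2, Esam or Cd37, which all lie below 0.

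**Figure D2:**
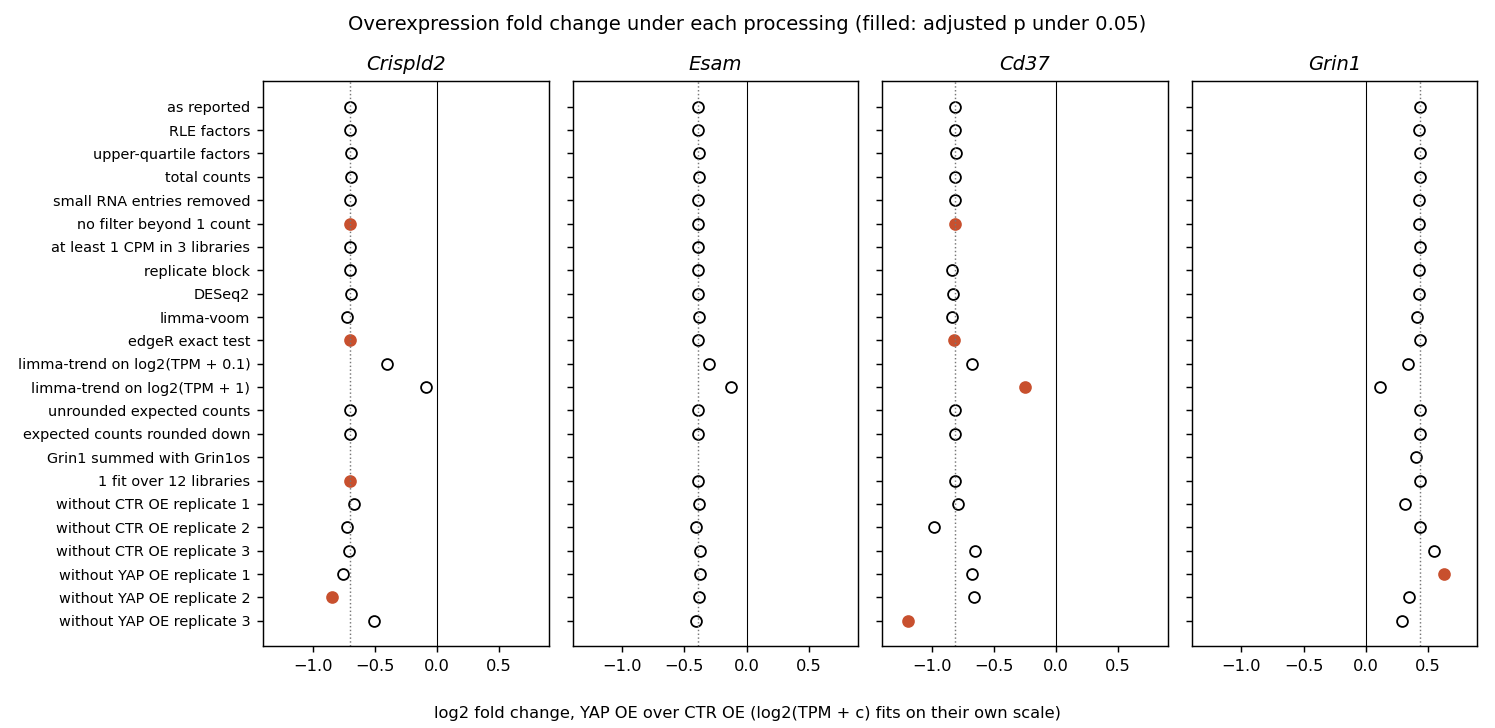
Log2 fold change of YAP OE over CTR OE (x axis) of each gene under every processing and with each library left out (rows); filled points have an adjusted p under 0.05, the dotted line is the reported value and the solid line is 0. All points of Crispld2, Esam and Cd37 lie below 0 and all points of Grin1 above it, and filled points are 4 for Crispld2, 0 for Esam, 4 for Cd37 and 1 for Grin1.

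The sizes of change that were called among genes of like count were read beside the 4 genes. Among 1186 genes within 1.5-fold of the mean count of Cd37 (44.0 over the 6 overexpression libraries), 16 were called, and the smallest of their absolute log2 fold changes was 0.83. For Crispld2 (57.5 counts, 1194 genes, 15 called) the smallest called change was 0.64, for Esam (88.0 counts, 1175 genes, 18 called) 0.51, and for Grin1 (134.0 counts, 1257 genes, 32 called) 0.45. The changes of Esam, Cd37 and Grin1 were below these values, and that of Crispld2 was above it, with an SE of 0.18 against a median SE of 0.18 over those genes. These are the sizes observed and not a tested limit of detection.

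Set side by side, the overexpression estimates were smaller than the knockdown ones. The fall of Cd37 was 76.2% of its knockdown rise on the log2 scale, that of Crispld2 46.1% and that of Esam 33.6%, whereas Yap1 itself moved by 0.97 up and 1.14 down, 84.5% as far. The 95% interval of the overexpression change included the mirror image of the knockdown estimate for Cd37 (-1.07). It did not include it for Crispld2 (-1.52), Esam (-1.15) or Grin1 (-1.67). The knockdown sizes were selected as large, so these ratios are a description.

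The control levels of the 2 experiments were close for 3 genes. CTR OE stood at 0.996 times CTR KD for Crispld2, 0.959 times for Cd37 and 1.02 times for Grin1, and at 1.27 times for Esam, where the lowest CTR OE library (1.90 CPM) was above the highest CTR KD library (1.66 CPM). The level of Esam in YAP OE, 1.496 CPM, was 0.971 times that in CTR KD. Plasmid and siRNA controls differ in the agent, and the experiment and the agent cannot be told apart.

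Of all genes called higher in the knockdown, 394 were tested in the overexpression. Of these, 74.4% (293 genes) had an estimate below 0, with a median log2 fold change of -0.08 (quartiles -0.16 and 0.00). The edgeR quasi-likelihood test called 5.58% of them lower (22 genes) and 4.31% higher (17 genes). Crispld2, Esam and Cd37 thus lay below the lower quartile of that set and Grin1 above the upper one. The set includes the 4 genes and is not matched to them for count. Their own overexpression SEs were 0.13 to 0.25, so these positions are a description. Ndufa4l2 was among the genes called higher in both, going from 0.708 ± 0.320 to 2.45 ± 0.78 CPM in the overexpression (log2 fold change 1.77, SE 0.28, edgeR adjusted p = 0.00259). The genes next in the ranking had overexpression log2 fold changes of -0.13 for Aurkc (SE 0.13, edgeR adjusted p = 0.753) and -0.21 for Prkch (SE 0.14, adjusted p = 0.567).

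**Figure D3:**
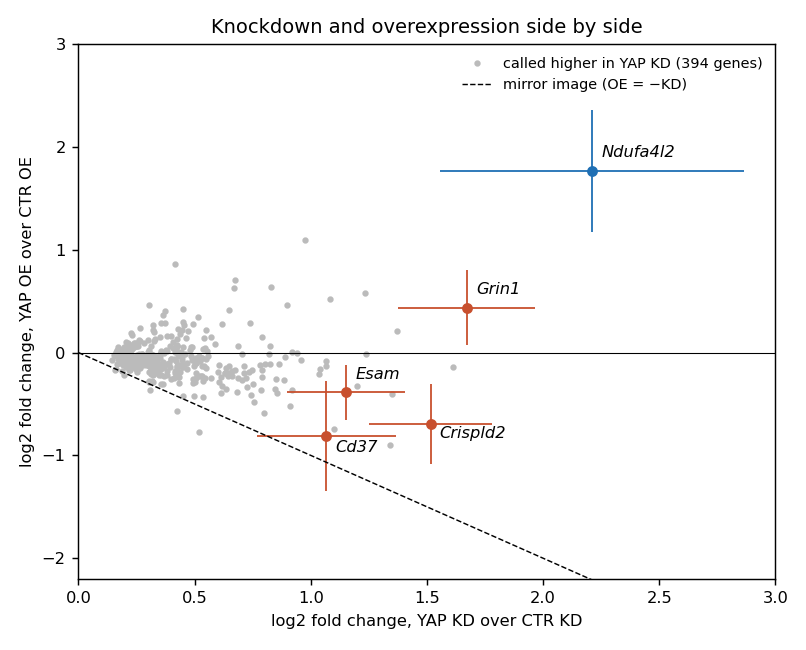
Log2 fold change in the knockdown (x axis) against that in the overexpression (y axis) for the 394 genes called higher in YAP KD (grey), the 4 genes (orange) and Ndufa4l2 (blue), with 95% intervals as bars; the dashed line marks equal and opposite changes. Cd37 lies near the dashed line, Crispld2 and Esam lie between it and 0, and Grin1 and Ndufa4l2 lie above 0.

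Grin1 was the only one of the 4 genes with counts that were not whole numbers. Its expected counts were not whole in 12 of 12 libraries, and those of Crispld2, Esam and Cd37 were whole in all 12 (within 0.005). Fractions arise where RSEM divides reads between genes. A single gene, Grin1os, gave whole sums with Grin1 in every library: 83, 126 and 125 in CTR KD, 272, 348 and 394 in YAP KD, 102, 116 and 144 in CTR OE and 114, 158 and 200 in YAP OE. Grin1os is a long noncoding RNA at chr2:25291258-25298660 on the plus strand, antisense to the 3′ part of Grin1 and wholly inside its span.

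The part of Grin1os in these sums was small. It held 4.03, 3.16 and 3.03 counts in CTR KD and 5.17, 11.27 and 17.82 in YAP KD. In the overexpression it held 5.32, 5.12 and 7.23 counts in CTR OE and 2.12, 8.35 and 2.03 in YAP OE. That is between 1.01% and 5.28% of the joint counts, too few for Grin1os to be tested. Summed with Grin1os, the overexpression log2 fold change of Grin1 was 0.40 (edgeR adjusted p = 0.311) in place of 0.43. Whether the counting used strand is not stated, so reads of Grin1 and of its antisense partner cannot be told apart where they overlap. The mean transcript length that RSEM assigned to Grin1 varied between 3954 and 4127 bases among libraries, and the group means were 4026 ± 36 bases in CTR KD and 4033 ± 28 in YAP KD. For the other 3 genes the group means of that length differed by less than 5 bases, so a shift between their annotated isoforms of unequal length was not seen.

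**Figure D4:**
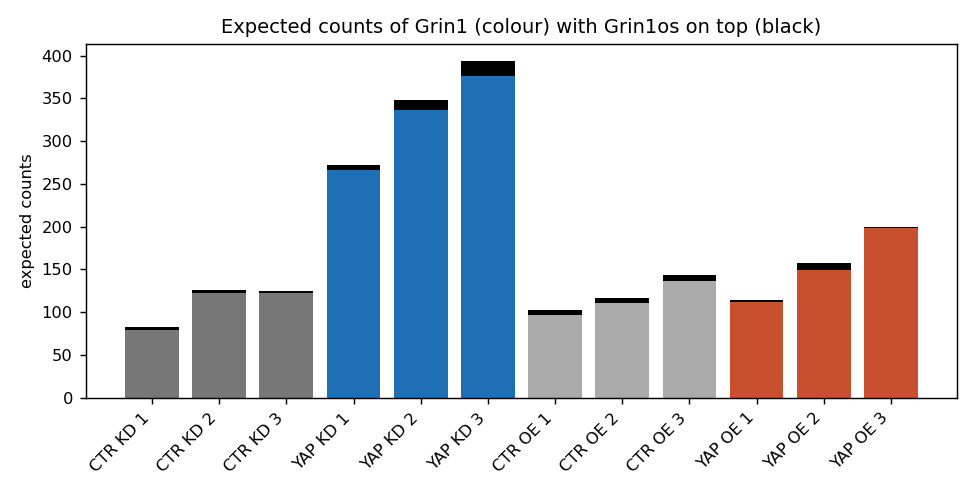
Expected counts (y axis, linear, from 0) of Grin1 in each of the 12 libraries (coloured by group) with those of Grin1os stacked on top in black. The joint bars are whole numbers, from 83 in CTR KD replicate 1 to 394 in YAP KD replicate 3, and the black part is at most 17.82 counts.

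Neighbouring genes were read to see whether the changes extended along the chromosome. The 2 nearest genes on each side of each member and those overlapping it were 18 in all, of which 17 were in the files and 13 were tested in the knockdown. Of these 13, the edgeR exact test called 3, all of them around Cd37, DESeq2 and limma-voom called 1 each, and the edgeR quasi-likelihood test called 1, Tead2, which encodes a TEAD factor and ends 163 bases from the 3′ end of Cd37 on the opposite strand. In the quasi-likelihood test 5 of the 13 had an unadjusted p under 0.05. The share over all genes at that limit is not given here, so this count cannot be read as an excess. Over all 14606 genes tested in the knockdown, the exact test called 1178 and the quasi-likelihood test 802. Tead2 rose from 78.5 ± 3.2 to 90.6 ± 0.8 CPM in YAP KD (log2 fold change 0.21, SE 0.04, edgeR adjusted p = 0.0211), a far smaller fold than that of Cd37. Its overexpression log2 fold change was -0.10 (SE 0.04, edgeR adjusted p = 0.331). The counts of Cd37 were whole, but the annotated spans of Cd37 and Tead2 do not overlap. Whole counts therefore do not show whether reads from beyond the annotated end of Tead2 were counted for Cd37, which was not tested.

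Around Cd37, Slc6a16, an orphan transporter of the solute carrier family, stood at a log2 change of 0.71 in the knockdown (SE 0.21, edgeR adjusted p = 0.0863), and Dkkl1, a secreted protein of spermatocytes, had 1.34 (SE 0.36, adjusted p = 0.0648). Dkkl1 had only 5 to 6 counts per CTR KD library and 11 to 16 per YAP KD library, and it was not tested in the overexpression. Around Esam, Vsig2, another immunoglobulin-type protein whose annotated span begins 935 bases beyond that of Esam, had 0.59 (SE 0.19, adjusted p = 0.109) and Nrgn, a neuronal calmodulin-binding protein, 0.22 (SE 0.21, adjusted p = 0.638). None of these 4 passed the quasi-likelihood test, whereas the edgeR exact test called Slc6a16 (adjusted p = 0.0233) and Dkkl1 (adjusted p = 0.0261). Around Crispld2 the estimates were 0.11 for Klhl36, 0.00 for Usp10, -0.02 for Zdhhc7 and 0.43 for 6430548M08Rik, and around Grin1 they were -0.05 for Anapc2, -0.25 for AA543186 and 0.02 for Man1b1 (edgeR adjusted p from 0.143 to 0.987). In the overexpression 12 neighbours were tested and the edgeR quasi-likelihood test called 0, with 2 at an unadjusted p under 0.05 (Tead2 and Msantd2). DESeq2 (3 genes without an adjusted p), limma-voom and the edgeR exact test called 0 as well.

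**Figure D5:**
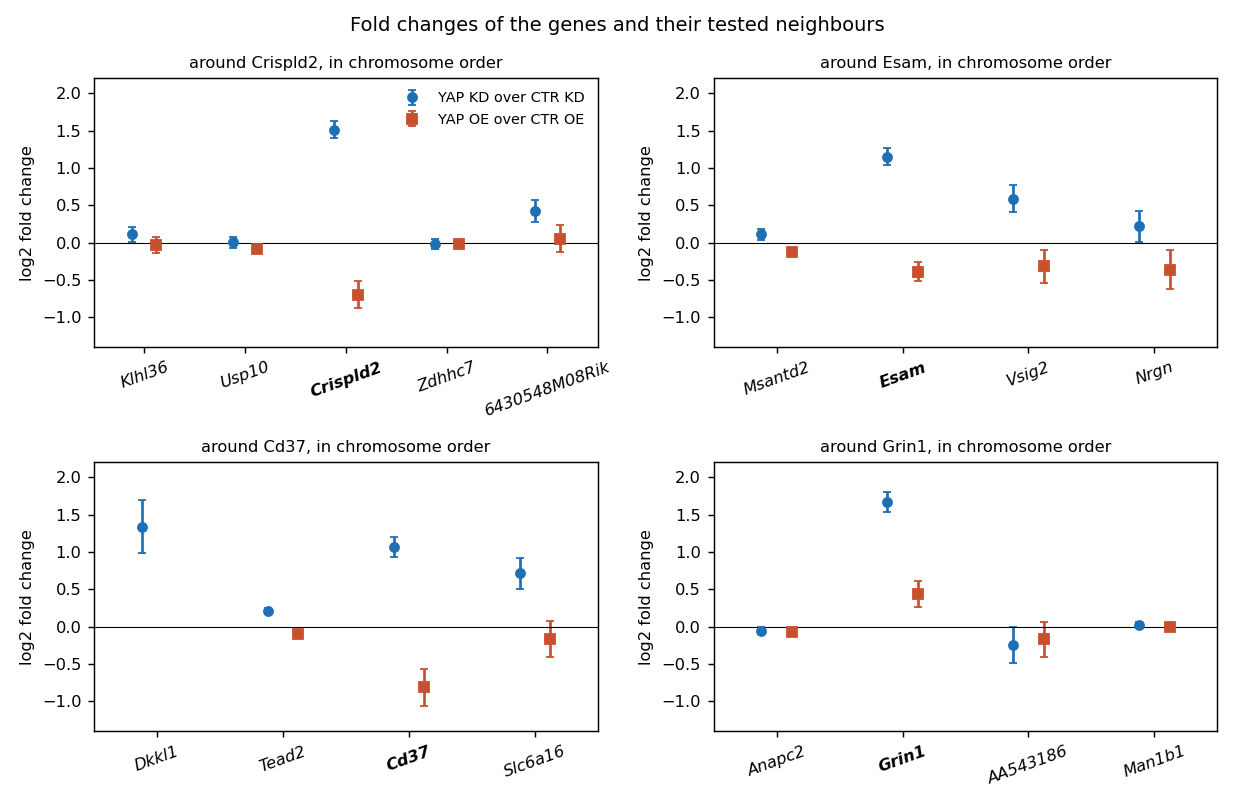
Log2 fold change (y axis, bars are SE) of each gene (bold) and its tested neighbours in chromosome order, in the knockdown (blue circles) and the overexpression (orange squares). The 4 genes stand above their neighbours in the knockdown, except that Dkkl1, with an SE of 0.36 and at most 16 counts in a library, reaches 1.34 beside Cd37.

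Relatives of the 4 genes were read from lists of each family. Of the other CAP superfamily genes 5 were tested, and Glipr2 rose in YAP OE (log2 fold change 0.22, SE 0.05, edgeR adjusted p = 0.0377); Crispld1, the closest relative of Crispld2, had 0.38 in the knockdown (adjusted p = 0.0527) and -0.20 in the overexpression (adjusted p = 0.655). Of 8 tested relatives of Esam among junctional immunoglobulin proteins, 1 fell in the knockdown (Gpa33, -0.30, adjusted p = 0.00271) and 0 were called in the overexpression, where Jam2, with the highest CPM of the list, had -0.04. Of 25 other tetraspanins, 1 rose and 2 fell in the knockdown, and Tspan32 rose in the overexpression (0.88, SE 0.21, edgeR adjusted p = 0.0420). Of the other ionotropic glutamate receptor genes, 2 of 10 fell in the knockdown, Grik3 (-0.35, adjusted p = 0.0210) and Grid1 (-0.65, adjusted p = 0.0439), and 0 of 11 were called in the overexpression. As a measure for these families and the marker lists below, 802 of all 14606 genes tested in the knockdown were called, 396 of them higher. The NMDA receptor genes Grin2a, Grin2b, Grin2c and Grin2d, whose proteins assemble with that of Grin1, stood at or below 0.067 TPM in every group mean. The median knockdown log2 fold changes of these lists were 0.29, 0.09, -0.07 and 0.32, against 0.01 over all genes, and their median overexpression log2 fold changes were 0.12, -0.06, 0.08 and 0.07, against 0.00.

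Markers of the cell types in which the 4 genes are best known were examined beside them. Cd53 and Ptprc of the blood cell list stood at 0 TPM in every group mean, Cd48 had no counts, and the summed blood cell markers, led by Laptm5, were 39.0 to 45.8 CPM in CTR KD and 31.0 to 34.0 CPM in YAP KD. In the overexpression they were 37.8 to 39.0 CPM in CTR OE and 39.3 to 43.9 CPM in YAP OE. Laptm5 fell in the knockdown (log2 fold change -0.44, edgeR adjusted p = 0.00749) and 1 of the 7 markers tested was called. Laptm5 made up between 79.3% and 86.3% of the sum in the group means. Without it, the other blood cell markers summed to 6.12 to 6.64 CPM in CTR KD and 6.60 to 7.19 CPM in YAP KD, so these ranges overlapped. In the overexpression the order turned without Laptm5, with 6.33 to 6.57 CPM in CTR OE and 4.99 to 6.06 CPM in YAP OE. Coro1a, the next in level, had 0.27 in the knockdown (edgeR adjusted p = 0.170) and -0.17 in the overexpression (adjusted p = 0.558).

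The endothelial markers, led by Pecam1, which ESCs also express, summed to 163.7 to 175.4 CPM in CTR KD and 149.6 to 156.2 CPM in YAP KD. They summed to 160.3 to 161.2 CPM in CTR OE and 164.4 to 174.6 CPM in YAP OE, in both cases in the direction opposite to Esam. Without Pecam1 the sums were 71.7 to 80.9 CPM in CTR KD, 63.9 to 69.5 CPM in YAP KD, 73.5 to 76.0 CPM in CTR OE and 76.7 to 80.5 CPM in YAP OE, in the same order. The vascular cadherin Cdh5 was at most 0.030 TPM in any group mean and Emcn had no counts. Of 10 endothelial genes tested, Robo4 rose in the knockdown (0.75, edgeR adjusted p = 0.0116), and Tek fell in the knockdown (-0.85, adjusted p = 0.00011) and rose in the overexpression (0.38, adjusted p = 0.00133).

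Neuron markers summed to 193.3 to 198.0 CPM in CTR KD and 186.9 to 188.8 CPM in YAP KD, below the controls where Grin1 was above them. In the overexpression they overlapped, at 198.2 to 200.1 CPM in CTR OE and 194.2 to 207.6 CPM in YAP OE. Without Stmn2, the highest in CPM, the order in the knockdown turned, with 83.3 to 85.6 CPM in CTR KD and 87.2 to 91.0 CPM in YAP KD. Of 11 tested, 2 rose and 2 fell in the knockdown, and in the overexpression Nefl rose (0.20, edgeR adjusted p = 0.0454) and Tubb3 fell (-0.20, adjusted p = 0.0353). Mesenchyme markers, of the cells known for Crispld2, were higher in sum, at 11.8 to 13.03 CPM in the CTR KD libraries and 13.9 to 15.6 CPM in the YAP KD libraries, with 0 of 7 called. They stood at 15.7 to 17.4 CPM in CTR OE and 15.5 to 20.2 CPM in YAP OE, where Crispld2 was lower. Without Acta2, the highest in CPM, the mesenchyme sums were 4.41 to 4.85 CPM in CTR KD, 5.28 to 6.12 CPM in YAP KD, 5.08 to 5.84 CPM in CTR OE and 5.23 to 6.47 CPM in YAP OE. The part of these cells in the changes was not tested, and in bulk RNA a change in the number of cells of a type and a change in RNA per cell cannot be told apart.

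Of the YAP pathway list of 12 genes, Yap1, Ctgf and Amotl2 fell in the knockdown and Tead2 rose, and in the overexpression Yap1, Ctgf, Cyr61, Amotl2 and Lats2 rose. The NuRD subunits and the ESC markers held no call in either experiment (13 and 12 genes tested). The 4 lists with no call in the knockdown (CAP superfamily, mesenchyme, ESC markers and NuRD) had 37 genes tested. Of these, 11 had an unadjusted p under 0.05 in the edgeR quasi-likelihood test, and the share over all genes at that limit is not given here. The edgeR exact test called 1, and DESeq2 (12 genes without an adjusted p) and limma-voom 0. The 6 lists with no call in the overexpression (junctional proteins, glutamate receptors, blood cell, mesenchyme, ESC markers and NuRD) had 58 genes tested. Of these, 11 had an unadjusted p under 0.05 in the edgeR quasi-likelihood test, where the share over all genes was 13.1%. In this case too the edgeR exact test called 1, and DESeq2 (16 genes without an adjusted p) and limma-voom 0.

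Among themselves the 4 genes varied together to unequal degrees. With log2(CPM + 0.5) centred within each experiment, Pearson's r over 12 libraries was 0.96 for Crispld2 and Esam, 0.89 for Cd37 and Esam, 0.81 for Cd37 and Crispld2, 0.81 for Esam and Grin1, 0.75 for Crispld2 and Grin1 and 0.66 for Cd37 and Grin1. These values include the knockdown libraries on which the genes were chosen. Over the 6 overexpression libraries alone, r was 0.86 for Cd37 and Esam, 0.83 for Crispld2 and Esam and 0.46 for Cd37 and Crispld2, and it was -0.67, -0.56 and -0.30 for Grin1 with Crispld2, Esam and Cd37. The step between the CTR and YAP groups enters all of these values, and the overexpression ones rest on 6 libraries, so they are a description.

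Over 12413 genes with a mean of at least 1 CPM, the most alike by the same measure were Nes, Lgr4 and Ric8b for Crispld2 (r = 0.98 each), and Cotl1, Rimbp2 and Nes for Esam (r = 0.98 each). Nes, the intermediate filament nestin, appeared for both, and went with a knockdown log2 fold change of 0.45 and an overexpression one of -0.12. Cd37 was most like Gjb1, Twf2 and Smox (r from 0.94 to 0.96), of which Gjb1, a gap junction protein, had log2 fold changes of 0.32 and -0.29. Grin1 was most like Upp1, Map2k1 and Gbe1 (r from 0.94 to 0.95), and Upp1, a uridine phosphorylase, had 0.55 in the knockdown and 0.04 in the overexpression. None of these 11 genes was called in the overexpression by the edgeR quasi-likelihood test (adjusted p from 0.174 to 0.827). Their r values include the knockdown libraries on which the 4 genes were chosen, and r takes no account of size. Map2k1, listed for Grin1, had a knockdown log2 fold change of 0.08, against 1.67 for Grin1.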

How the data were processed

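RNA was sequenced from 12 ESC libraries on an Illumina Genome Analyzer. The authors aligned reads with STAR to mm10 and quantified curated RefSeq genes with RSEM (versions and strand setting not given in the sources used here). The deposited expected counts, not normalized, divide shared reads between genes; the deposited TPM values are scaled to length and sum. Small RNA entries took between 64.1% and 71.4% of the TPM, so TPM of other genes moves with them; TPM served for levels between genes and in 2 alternatives. Tables of the authors' own comparisons were not used here.

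Expected counts were rounded and each experiment was fitted on its 6 libraries with edgeR 4.0.16 in R 4.3.3 (filterByExpr, TMM, quasi-likelihood F test, two-sided, Benjamini-Hochberg over all genes tested; called: adjusted p under 0.05). SE is the log2 fold change over the square root of F, and 95% intervals use the test's degrees of freedom. The script was tested on simulated data. Other settings used limma 3.58.1 and DESeq2 1.42.0, other scalings, filters and roundings, left-out libraries and a replicate block. The members, lists and rules were chosen with earlier results of these data known. Besides the 4 genes, the text names Yap1, Ndufa4l2 and the 2 genes next in the ranking, the neighbours, genes of the lists that were called in YAP OE or had the highest CPM, and the 3 genes most alike in pattern. Genes called in the knockdown, Crispld1, the Grin2 genes, Cdh5, Coro1a and markers at 0 were named in addition, after their values were seen. With 3 libraries a group, no group was tested for outlying samples. Marker sums without the gene of highest CPM were added after seeing the data.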

Additional observations from a re-analysis of the deposited data

How the results depend on the processing

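No setting reversed the direction of any of the 4 genes in either experiment. In the overexpression, Crispld2 passed the threshold with log2 fold changes of -0.70 without a filter beyond 1 count, -0.70 in the edgeR exact test and -0.70 in 1 fit over 12 libraries. Cd37 passed with -0.82 without a filter beyond 1 count, -0.82 in the edgeR exact test and -0.25 in limma-trend on log2(TPM + 1), and it could not be fitted at 1 CPM in at least 3 libraries, where it was filtered out. Leaving out 1 library gave between -0.84 and -0.51 for Crispld2, -0.41 and -0.37 for Esam, -1.19 and -0.65 for Cd37 and 0.29 and 0.63 for Grin1. In limma-trend on log2(TPM + 1) all sizes shrank, since the pseudocount exceeds most levels here.

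The number of genes called in the overexpression (316) was 556 without a filter beyond 1 count, 518 in the edgeR exact test and 68 and 87 in limma-trend on log2(TPM + 0.1) and log2(TPM + 1), and between 154 and 327 with 1 library left out, the lowest without CTR OE replicate 3. The number in the knockdown (802) was 47 and 74 on the TPM scales, 1261 in 1 fit over 12 libraries and between 298 and 1019 with 1 library left out. With the replicate number as a block it was 193, and 280 in the overexpression; the block changed no call of the 4 genes in the overexpression (log2 fold changes -0.70, -0.39, -0.84 and 0.43 for Crispld2, Esam, Cd37 and Grin1). Same-numbered libraries did not deviate together (correlations of -0.29, -0.14 and -0.01 in the knockdown and 0.02, 0.05 and 0.02 in the overexpression), so the numbers were not taken as pairs, and the cause of the change in counts was not tested.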
